A study of Drosophila melanogaster with 27 samples.

Results

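The genes described here encode the proteins of the mitochondrial ribosome in larval ovaries of *Drosophila melanogaster*. They were taken as every gene in the count tables whose FlyBase symbol starts with mRpL, for the large subunit, or mRpS, for the small subunit. The rule found 73 genes, 47 of the large and 26 of the small subunit, among 16257 genes in the tables. The 2 subunit genes *tko* and *bonsai* carry other symbols, fell outside the rule and are given only for comparison. RNA was sequenced from germ cells, from somatic cells and from whole ovaries at the early (72 h after egg laying, AEL), mid (96 h AEL) and late (120 h AEL, white pupa) stages of terminal filament formation, the assembly of the somatic cell stacks that found the ovarioles, in 3 replicates each and 27 libraries in all.

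Germ cells were sorted by GFP after UAS:Green Stinger females had been crossed to *nos:GAL4* males, a line that also carries UAS-Dcr-2. Somatic cells were sorted in the same way after a cross of such females to *bab:GAL4* males, whose driver is an insertion in *bab1* carried over the TM6B balancer. Whole ovaries came from the wild-type strain Oregon R and were not sorted. Each sorted replicate pooled the cells of many ovaries, and tissue and driver parent differ together, so that their shares in a difference between germ and somatic cells cannot be told apart. The study describes the replicates as biological.

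Mitochondrial ribosomes translate the few proteins that the mitochondrial genome encodes, all of them membrane subunits of the respiratory chain and the ATP synthase. Their rRNAs are transcribed inside the organelle, whereas all of their proteins are encoded in the nucleus, made in the cytosol and imported. Some of these proteins have counterparts in bacterial ribosomes, and others were added in the mitochondrial lineage. In the *Drosophila* ovary, germ cells receive and amplify the mitochondria that pass to the next generation. The genes lie on the X chromosome (11 genes) and on 2L (12), 2R (12), 3L (17) and 3R (21), and their exons span between 327 and 2078 bases, with a median of 783 against 2014 for the 10060 genes tested in whole ovaries.

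Levels are given as CPM, the counts of a gene scaled to a library of 1000000 counts. Library totals ranged over 9680615 to 72875881 estimated counts, and a gene with 0 counts could have up to 3 counts, which is 0.0412 to 0.310 CPM and covers counting error only. Markers of germ cells (7 genes, among them *vas*, *aub* and *zpg*) summed to 2348 to 5157 CPM in germ cell libraries and to 12.6 to 50.5 CPM in somatic cell libraries. Markers of ovarian somatic cells (6 genes, among them *tj*, *bab1*, *bab2* and *Wnt4*) summed to 47.3 to 1474 CPM in germ cell libraries and to 1731 to 2402 CPM in somatic cell libraries, so that the marker sums of the sorts did not overlap, and the germ cell libraries varied more in somatic markers. Single markers did overlap. *bab1* had 15.3 to 94.2 CPM in germ and 32.7 to 91.0 CPM in somatic cell libraries. *bab2* had 16.5 to 794 CPM in germ and 352 to 865 CPM in somatic cell libraries. *tj* did not overlap, with at most 154 CPM in germ and at least 160 CPM in somatic cell libraries. Among the germ cell libraries of the mid stage, replicate 1 had 12 member genes without a count, and replicates 3 and 4 had 4 each. Fat body markers summed to 3332 CPM in that replicate 1 and to 16.3 to 60.9 CPM in the other germ cell libraries. In whole ovaries, replicate 3 of the early stage stood apart, with a median member 0.93 lower on the log2 scale than in the other early libraries. In that library the other genes with exons under 1000 bases had a median 0.50 lower than in the other early libraries. Most counts of called members that rest on these libraries, and some single genes, are also given from fits that left libraries out. The remaining results are given with these libraries only.

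Among the sorted groups, late somatic cells had the lowest mean of summed member mRNA, although replicate 3 of the mid germ cells lay below replicates 1 and 2 of the late somatic cells. Summed over all 73 genes, the CPM of the germ cell libraries was 2027, 2493 and 2322 at the early stage, 1782, 1282 and 1989 at the mid stage and 1873, 1826 and 1976 at the late stage. In somatic cells the sums were 2261, 2720 and 1892 at early, 1710, 1841 and 2151 at mid and 1336, 1414 and 1221 at late. The late somatic libraries lay below all the early and mid somatic libraries, and below the late germ cell libraries as well. Whole ovaries gave 2848, 2717 and 1690 CPM at early, 2433, 2980 and 2957 at mid and 1530, 1625 and 1901 at late, and their late libraries lay below every mid library but not below replicate 3 of early.

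**Figure D1:**
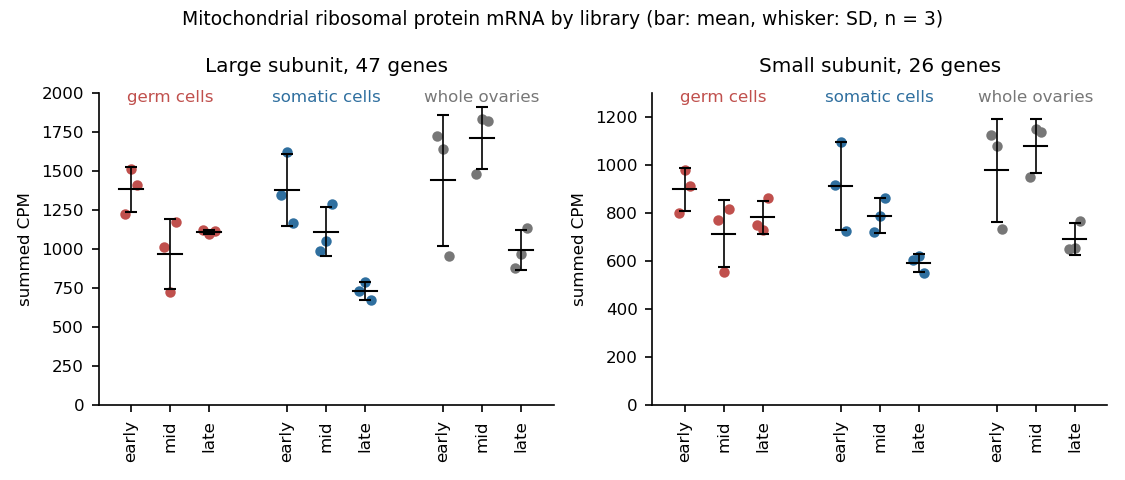
Summed CPM of the 47 large subunit genes (left) and the 26 small subunit genes (right) in each library, for germ cells, somatic cells and whole ovaries at the early, mid and late stages. Points are libraries, horizontal bars the mean and whiskers the SD of 3 libraries. The late somatic libraries sum to 672 to 792 CPM for the large subunit, and the late germ cell libraries to 1095 to 1121 CPM.

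Both subunits took part. The large subunit genes summed to 732 ± 60 CPM in late and 1379 ± 231 CPM in early somatic cells (SD, n = 3 each), and the small subunit genes to 592 ± 37.7 and 912 ± 184 CPM. The ratio of large to small subunit sums was 1.24 ± 0.030 in late and 1.52 ± 0.073 in early somatic cells, against 1.43 ± 0.12 in late and 1.54 ± 0.0083 in early germ cells (SD, n = 3 each). No test was run on this ratio. Subunits were assigned by symbol, so that *mRpS30*, found in the large subunit in mammals, was summed with the small subunit. It averaged 127 CPM in early and 71.3 CPM in late somatic cells. In bulk samples, fewer cells of a type and less RNA per cell cannot be told apart.

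The levels of single members, set per length, spanned a wide range in every tissue. In germ cells *mRpS25*, *mRpL30* and *mRpS22* had the highest means, with 115 ± 53.3, 106 ± 36.1 and 66.9 ± 14.7 CPM per kilobase of exon (SD over 9 libraries). *mRpL30*, *mRpS25* and *mRpS22* led in somatic cells, with 142 ± 28.3, 108 ± 14.3 and 64.2 ± 15.8 CPM per kilobase. In whole ovaries the highest were *mRpL30*, *mRpL20* and *mRpS25*, with 108 ± 20.5, 91.8 ± 24.2 and 91.7 ± 9.66 CPM per kilobase, and *mRpL20* and *mRpS25* did not differ beyond their spread. *mRpL30* and *mRpL20* encode large subunit proteins with bacterial counterparts, while *mRpS25* and *mRpS22* encode small subunit proteins that bacterial ribosomes lack.

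The lowest members were also much the same. *mRpL55*, *mRpL21* and *mRpL52* had 3.70 ± 5.84, 3.73 ± 1.45 and 4.19 ± 2.71 CPM per kilobase in germ cells, 3 levels within each other's spread. In somatic cells *mRpL55*, *mRpL21* and *mRpL42* were lowest, with 1.35 ± 1.43, 3.55 ± 1.0 and 3.62 ± 4.46 CPM per kilobase. In whole ovaries *mRpL21*, *mRpL55* and *mRpL52* were lowest, with 6.67 ± 1.35, 6.96 ± 4.64 and 8.84 ± 5.78 CPM per kilobase. All 73 genes had enough counts to enter each of the 4 model fits, so that no member was left out.

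The question put to the somatic cells was which genes change while terminal filaments form. Between the early and the late stage 27 of the 73 members fell and 0 rose in late somatic cells (edgeR's quasi-likelihood test, Benjamini-Hochberg adjusted p under 0.01 over all genes). These are 37.0% of the members, where 11.3% of all 9931 genes tested fell. At an unadjusted p under 0.05, 50 members were lower and 2 higher, where 2163 and 2381 of all 9931 genes were. DESeq2 called 40 members lower and 1 higher, where it called 30.5% of all genes in either direction. The members' median log2 fold change was -0.92, and that of all genes tested was 0.02. In 48 members every late somatic library lay below every early one, which held for 24.0% of all genes tested.

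The members that fell come from both subunits, with log2 fold changes between -2.21 (*mRpS6*) and -0.62. By symbol 19 were of the large and 8 of the small subunit, *mRpS30* among the latter. *mRpL44*, a large subunit protein with a fold like that of RNase III enzymes in mammals, had the smallest adjusted p. Its CPM was 27.5, 34.3 and 27.0 in late and 77.8, 94.8 and 79.5 in early somatic cells, a log2 fold change of -1.49 (SE 0.17, edgeR adjusted p = 6.8e-05). At the mid stage the somatic libraries held 60.2, 46.1 and 65.0 CPM of *mRpL44*, so that the late libraries lay below those of both other stages. The gene lies on chromosome 3R at 5469463 to 5470636, on the minus strand (Ensembl annotation of the release 6 assembly).

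*mRpL22*, whose bacterial counterpart lines the tunnel through which the new protein leaves the ribosome, moved earlier. It had 35.7, 34.0 and 32.3 CPM in mid and 61.6, 75.6 and 59.5 CPM in early somatic cells, and was the 1 member called between these stages (log2 fold change -0.96, SE 0.16, edgeR adjusted p = 0.0062), where 1.01% of all genes fell. This call was lost when any 1 of the somatic libraries other than replicate 3 of late was left out. In late somatic cells *mRpL22* stood at 25.9, 28.2 and 21.9 CPM, a log2 fold change of -1.36 over early (SE 0.17, edgeR adjusted p = 0.0001).

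Between late and mid somatic cells 4 members fell and 0 rose, where 3.47% of all genes fell. With p unadjusted and under 0.05 (edgeR), 36 were lower and 0 higher, where 1388 and 1533 of all 9931 genes were. DESeq2 called 14 members lower, where it called 17% of all genes in either direction. The 4 were *mRpL44*, *mRpS10*, *mRpL28* and *mRpL37*. *mRpS10*, a small subunit protein with a bacterial counterpart, had 8.45, 9.78 and 5.72 CPM in late and 19.1, 18.6 and 23.4 CPM in mid somatic cells (log2 fold change -1.33, SE 0.27, edgeR adjusted p = 0.0064). *mRpL37*, a large subunit protein that bacterial ribosomes lack, had 31.9, 31.2 and 29.6 CPM in late and 46.4, 57.9 and 65.5 CPM in mid somatic cells (log2 fold change -0.85, SE 0.18, edgeR adjusted p = 0.0077). The groups did not overlap for either gene. No member remained called in this comparison without replicate 3 of mid, without replicate 1 of late or without replicate 3 of late.

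*mRpL28* and *mRpS30* complete the 4 members with the smallest adjusted p between early and late. *mRpL28*, with a bacterial counterpart, had 29.9, 29.9 and 28.3 CPM in late and 63.1, 78.3 and 53.8 CPM in early somatic cells (log2 fold change -1.14, SE 0.17, edgeR adjusted p = 0.00033). *mRpS30*, which despite its symbol is found in the large subunit of mammalian mitochondrial ribosomes, had 76.3, 69.5 and 67.9 CPM in late and 136, 129 and 118 CPM in early somatic cells (log2 fold change -0.83, SE 0.13, edgeR adjusted p = 0.00039). For both genes the late libraries lay below the early ones.

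Not every member followed. In 7 members the log2 fold change from early to late was above 0 in somatic cells, and none of these passed the test. *mRpL33*, a short large subunit protein with a bacterial counterpart, had 15.5, 16.5 and 15.9 CPM in late and 5.38, 10.9 and 5.91 CPM in early somatic cells (log2 fold change 1.12, SE 0.34, edgeR adjusted p = 0.022). *mRpS5*, whose bacterial counterpart sits where mRNA enters the small subunit, had 99.8, 100 and 92.7 CPM in late and 92.6, 116 and 77.4 CPM in early somatic cells, with overlapping groups.

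The count of 27 members became 16 without replicate 1 of late and 14 without replicate 3 of late. It was 9 when the comparison was fitted over all 18 sorted libraries, a fit chosen after the data had been seen. The late somatic libraries also differed from the early ones in markers of blood cells, which summed to 1719 to 2194 CPM in late and 11.0 to 68.4 CPM in early somatic cells. Nearly all of this was *Pxn*, while *Hml* was at most 0.858 CPM, *NimC1* at most 0.263 CPM and *He* at 0 in the late somatic libraries. Their part in the fall of the members was not tested. By exon length, 17 of the 51 members under 1000 bases fell (33.3%), with a median log2 fold change of -1.04. Of the other genes of that length 10.2% fell, with a median of -0.30, and the median of the other genes of 2000 bases or more was 0.24. The part of length in the fall of the members was not tested.

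**Figure D2:**
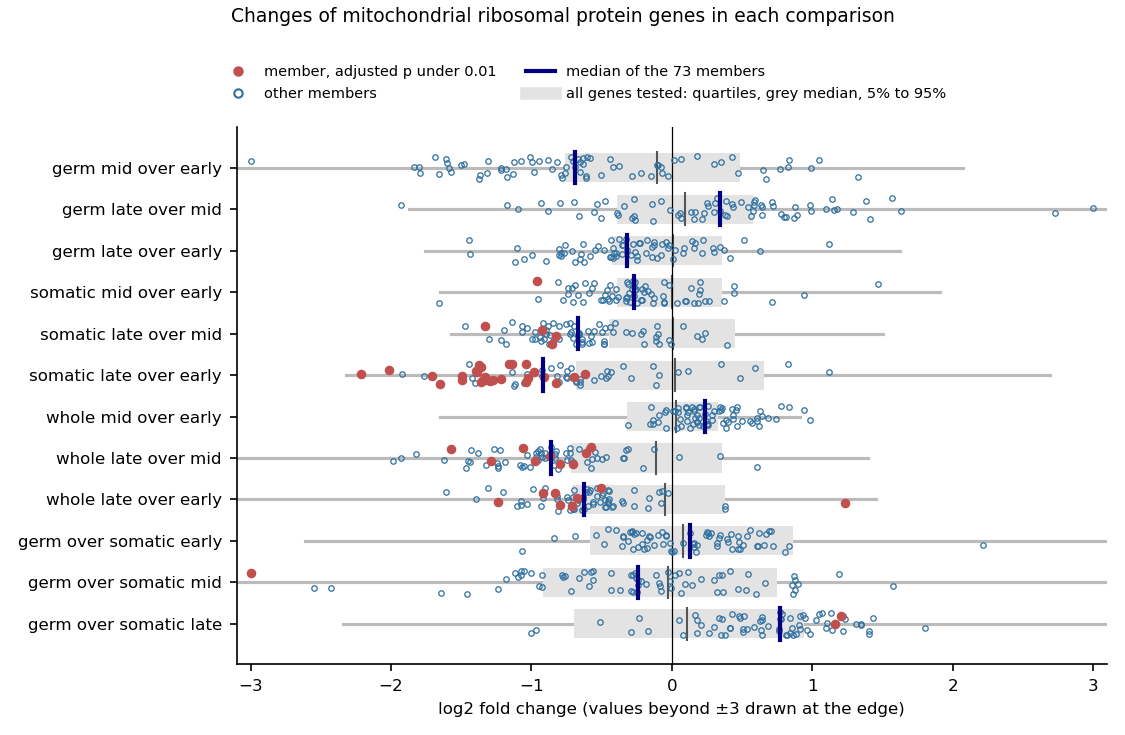
Log2 fold change of each of the 73 members in 12 comparisons, with the members that passed an adjusted p of 0.01 filled. Grey boxes, lines and ticks give the quartiles, the range from 5% to 95% and the median of all genes tested. The median of the members lies at -0.92 for late over early somatic cells and at 0.77 for germ over somatic cells of the late stage, against 0.02 and 0.11 for all genes.

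The other genes of mitochondrial gene expression and of respiration are given by their own counts and medians, and no test compared the lists. From early to late, 0 of 18 mitochondrial aminoacyl-tRNA synthetase and amidotransferase genes, which charge the tRNAs, were called (edgeR), with a median log2 fold change of -0.17. Of 9 mitochondrial translation factors, 1 fell, the elongation factor *mEFTu1* (log2 fold change -1.73, SE 0.20, edgeR adjusted p = 6.4e-05), and the median of the 9 was -0.69. Of 10 genes of mitochondrial transcription and RNA handling, 2 fell, the polymerase *PolrMT* and *mtTFB1*, with log2 fold changes of -0.64 and -0.57, and the median of the 10 was -0.45. Neither *tko* (-0.44) nor *bonsai* (-0.65) passed the test. The proteins of the cytosolic ribosome had 23 of 87 genes tested lower and 3 higher, with a median of -0.69, and the nuclear subunits of oxidative phosphorylation had 33 of 68 lower and 0 higher, with a median of -0.95. The log2 fold changes of the mitochondrial rRNAs were -0.07 and 0.18, and neither was called. In somatic cell libraries *mt:lrRNA* had 18041 to 30085 CPM and *mt:srRNA* 25.2 to 104 CPM. The libraries were poly(A)-selected, so that these values are not taken as amounts of rRNA.

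In germ cells no member was called between any stages, and no gene of the 10340 tested was called either (0% in each of mid over early, late over mid and late over early). At an unadjusted p under 0.05 the edgeR test gave 16 members between mid and early, all lower, 10 between late and mid, 9 of them higher, and 3 between late and early, all lower. Of all 10340 genes it gave 1940, 1203 and 678 in these comparisons. DESeq2 called 5, 2 and 1 members. The median log2 fold change of the members was -0.69 from early to mid, 0.34 from mid to late and -0.32 from early to late, against -0.11, 0.10 and 0.01 for all genes tested. For the 51 members with exons under 1000 bases these medians were -0.70, 0.25 and -0.40. The other genes of that length had medians of -0.52, 0.18 and -0.28. The part of length in these changes was not tested.

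In 31 members every late germ cell library lay below every early one, which held for 13.0% of all genes tested. *mRpL44* had 45.1, 46.4 and 46.9 CPM in late and 61.8, 95.1 and 78.9 CPM in early germ cells, so that its groups did not overlap (log2 fold change -0.76, SE 0.44, edgeR adjusted p = 0.91). *mRpL37* lay higher, again without overlap, with 68.2, 67.6 and 72.0 CPM in late and 43.0, 63.3 and 58.3 CPM in early germ cells (log2 fold change 0.35, SE 0.31, edgeR adjusted p = 0.9997). Without the 3 germ cell libraries of mid, 0 members were called between late and early, among 15 genes in all.

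The comparison of germ with somatic cells asks which genes set the tissues apart. Over all stages 2 members were lower in germ cells, *mRpL43* and *mRpS5*, where 12.6% of all 11243 genes tested were lower, and 0 were higher. At an unadjusted p under 0.05 (edgeR), 10 members were higher and 5 lower, where 2659 and 2713 of all 11243 genes were. DESeq2 called 5 members higher and 3 lower, where it called 36.6% of all genes in either direction. The mid germ cell libraries bear on this count. With the early and late stages alone, 13 members were higher in germ cells, where 17.0% of all genes were higher, and 2 were lower, where 13.1% were. The 13 included *mRpS29*, a GTP-binding protein of the small subunit (log2 fold change 0.67, edgeR adjusted p = 0.00036), *mRpL19* (0.57, adjusted p = 0.00057) and *mRpL16* (0.91, adjusted p = 0.00077), named after their values were seen. The 2 lower members in that fit were *mRpS5* and *mRpL30*.

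*mRpS5* lay lower in germ cells, and its call remained without the mid stage, just under the threshold (edgeR adjusted p = 0.0099). At no single stage did it pass (edgeR adjusted p = 0.069 at early, 0.15 at mid and 0.089 at late). It had 19.8, 53.1 and 63.5 CPM in early, 92.2, 56.6 and 35.7 CPM in mid and 42.5, 35.7 and 71.5 CPM in late germ cells. In somatic cells it had 92.6, 116 and 77.4 CPM at early, 103, 99.4 and 114 CPM at mid and 99.8, 100 and 92.7 CPM at late. Only replicate 1 of the mid germ cells reached the somatic range, and over all stages *mRpS5* was lower in germ cells (log2 fold change -0.94, SE 0.22, edgeR adjusted p = 0.0029). The gene lies on chromosome 3L at 24537236 to 24543534, on the plus strand.

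*mRpL43*, a large subunit protein that bacterial ribosomes lack, was nearly absent from the mid germ cell libraries. It had 0 counts in replicates 1 and 4 and 1 count in replicate 3, against 578, 340 and 229 counts in mid somatic cells. The ratio of summed counts per library total was 0.00194 (95% exact interval 4.92e-05 to 0.0109, counting error only). It was the 1 member called between germ and somatic cells at mid (edgeR adjusted p = 6e-06), where 3.59% of all genes were lower in germ cells. Its log2 fold change there was -9.06, and the lowest 5% of all genes tested lay below -7.13. From early to mid germ cells the lowest 5% of all genes lay below -7.42, so that a near loss at mid was not particular to *mRpL43*. At the other stages *mRpL43* had 8.82, 9.35 and 11.7 CPM in early and 5.96, 6.43 and 10.0 CPM in late germ cells, with 11.6, 11.3 and 12.4 CPM in early and 5.14, 5.05 and 3.72 CPM in late somatic cells. Without the mid libraries its log2 fold change over the stages was 0.22 in place of -2.87, so that the call over all stages rested on the mid libraries. Its exons overlap those of the antisense gene *sigmar* over 66 bases, and whether the counting used the strand is not given in the sources used here.

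**Figure D3:**
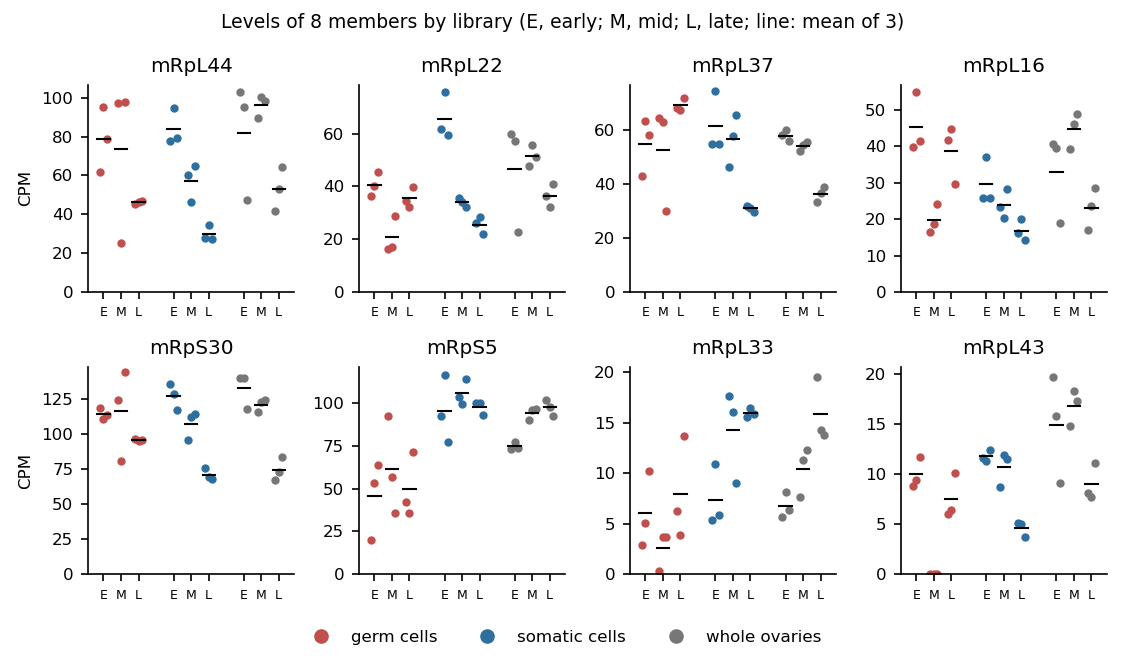
CPM of 8 members in each library, by stage (E, early; M, mid; L, late) in germ cells, somatic cells and whole ovaries, with the mean of 3 libraries as a line. *mRpL44*, *mRpL22*, *mRpL37*, *mRpL16* and *mRpS30* are lower in the late than in the early somatic libraries, *mRpS5* and *mRpL33* are not, and *mRpL43* is at or near 0 in the mid germ cells.

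The other members with the lowest and highest ratios of germ to somatic cells over all stages did not pass the test. On the low side were *mRpL33* (log2 fold change -1.24, SE 0.42), *mRpS21* (-0.45, SE 0.76) and *mRpL30* (-0.42, SE 0.17), after *mRpL43* and *mRpS5*. On the high side were *mRpL55* (1.36, SE 1.33), *mRpS14* (1.07, SE 0.33), *mRpS6* (0.96, SE 0.35), *mRpL42* (0.89, SE 0.71) and *mRpS18A* (0.86, SE 0.36), with edgeR adjusted p between 0.016 and 0.46. *mRpL55* had 0 counts in 3 somatic and 2 germ cell libraries, and its direction turned without replicate 1 of the mid germ cells. *mRpS14* shares 30 exon bases with *CG32533* on its own strand, and 255 with the antisense gene *Naa15-16*, so that how its reads were divided between the genes is uncertain.

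The 3 genes *mRpS18A*, *mRpS18B* and *mRpS18C* descend from a single bacterial gene, and in mammals their products sit at different places of the ribosome. Over the 9 libraries of a tissue, *mRpS18A* averaged 18.7 ± 8.54 CPM in germ and 10.8 ± 7.78 CPM in somatic cells (SD). *mRpS18B* averaged 12.6 ± 6.21 CPM in germ and 10.1 ± 1.98 CPM in somatic cells. *mRpS18C* averaged 11.5 ± 6.17 CPM in germ and 9.57 ± 5.31 CPM in somatic cells. The tissues overlapped for all 3 genes.

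Germ and somatic cells were also compared at each stage. The late and the early differences were tested against each other by the test of the change from early to late given below. For 0 members did that test pass, and no test compared the mid stage with the other stages. At the early stage 0 members were called, where 4.79% of all genes were (edgeR). At an unadjusted p under 0.05 there were 5 members and 3495 of all 11243 genes, and DESeq2 called 1 member and 16.3% of all genes. At the mid stage 12 members, the called *mRpL43* among them, were lower in germ cells and 1 was higher at an unadjusted p under 0.05 (edgeR). Of all 11243 genes 2222 were lower and 1639 higher. Of the 73 log2 fold changes 47 were below 0, with a median of -0.24, against 51.2% and -0.03 for all genes. At the late stage 2 members were higher in germ cells, which is 2.74% of the members where 4.89% of all genes were higher, and 0 were lower. At an unadjusted p under 0.05, 24 members were higher in late germ cells and 1 was lower (edgeR), where 1824 and 1639 of all 11243 genes were. DESeq2 called 7 higher, where it called 17.5% of all genes in either direction. Of the 73 log2 fold changes 67 were above 0, as were 53.7% of those of all genes. The members' median was 0.77, against 0.11 for all genes, and in 55 members every late germ cell library lay above every late somatic one, which held for 31.7% of all genes tested. With exons under 1000 bases, the 51 members had a median of 0.78 and the other genes 0.33. The median of the other genes of 2000 bases or more was -0.12. The part of length in the late difference was not tested.

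The 2 called members were *mRpL16* and *mRpL37*. *mRpL16*, whose bacterial counterpart helps to seat tRNAs near the centre where peptide bonds form, had 41.9, 44.7 and 29.8 CPM in late germ and 16.2, 20.1 and 14.2 CPM in late somatic cells (log2 fold change 1.20, SE 0.27, edgeR adjusted p = 0.0057). *mRpL37* had 68.2, 67.6 and 72.0 CPM in late germ and 31.9, 31.2 and 29.6 CPM in late somatic cells (log2 fold change 1.16, SE 0.26, edgeR adjusted p = 0.0059). Neither pair of groups overlapped, and both calls were lost without any 1 of replicates 2 and 3 of late germ cells or of the 3 late somatic replicates. *mRpL16* lies on the X chromosome at 1890256 to 1891482 and *mRpL37* on 3R at 10782563 to 10784092.

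**Figure D4:**
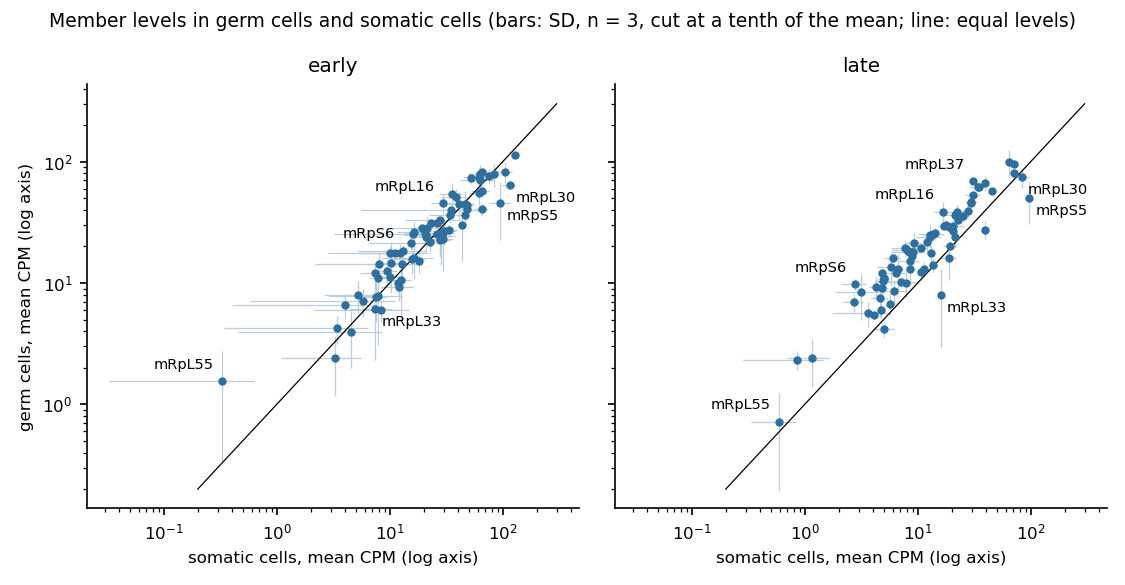
Mean CPM of each member in germ cells (vertical, log axis) against somatic cells (horizontal, log axis) at the early (left) and late (right) stage, with SD of 3 libraries as bars and a line at equal levels. At early 40 of the 73 log2 fold changes lie above 0, and at late 67 do, with *mRpS5*, *mRpL33* and *mRpL30* below the line.

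At late, *tko* was also higher in germ cells (log2 fold change 1.35, SE 0.32, edgeR adjusted p = 0.0084). So were *mEFTu1* (1.16), *AlaRS-m* (1.09) and *IleRS-m* (1.49), the last 2 of them tRNA synthetases, among 9 translation factors and 18 synthetase and amidotransferase genes. The medians of these lists were 0.63 and 0.48. For the cytosolic ribosomal proteins the median was 0.09, with 4 of 89 genes higher and 1 lower, and for the nuclear subunits of oxidative phosphorylation 0.39, with 1 of 71 higher. Somatic cell markers summed to 642 to 1474 CPM in late germ cells and 2328 to 2402 CPM in late somatic cells, and their part in the size of these differences was not tested.

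Whether the change from early to late differed between the tissues was tested directly. For 0 members did the difference pass the threshold (edgeR), where 0.116% of all 11243 genes did. At an unadjusted p under 0.05, 7 members differed, all with a less negative or more positive change in germ cells. Of all 11243 genes 630 differed in that direction and 643 in the other. DESeq2 called 1 member, and 2.71% of all genes it tested. The median difference was 0.58, against -0.02 for all genes, and 66 of the 73 differences were above 0. *mRpL37* had the smallest adjusted p, with a difference of 1.33 on the log2 scale (SE 0.36, edgeR adjusted p = 0.14), followed by *mRpL22* with 1.17 (SE 0.33, edgeR adjusted p = 0.15).

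In whole ovaries, which hold both tissues, the members were lower at late than at mid. Between late and mid 9 members fell and 0 rose, where 9.07% of all 10060 genes tested fell. At an unadjusted p under 0.05, 59 members were lower and 1 higher (edgeR), where 2757 and 1763 of all 10060 genes were. DESeq2 called 23 members lower, where it called 26.4% of all genes in either direction. The median log2 fold change was -0.86, against -0.11 for all genes, and in 67 members every late library lay below every mid library, which held for 33.6% of all genes tested. The members with the smallest adjusted p were *mRpS35*, *mRpL23*, *mRpS30* and *mRpL37*.

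*mRpS35*, a small subunit protein that bacterial ribosomes lack, had 17.9, 17.0 and 20.1 CPM in late and 29.0, 38.8 and 40.4 CPM in mid whole ovaries (log2 fold change -0.98, SE 0.16, edgeR adjusted p = 0.0024). *mRpL23*, whose bacterial counterpart stands at the exit of the tunnel, had 17.5, 20.6 and 18.6 CPM in late and 30.8, 36.0 and 36.5 CPM in mid whole ovaries (log2 fold change -0.87, SE 0.15, edgeR adjusted p = 0.0027). The groups of both genes were apart. *mRpS30* had 67.1, 72.9 and 83.7 CPM in late and 116, 123 and 125 CPM in mid whole ovaries, and *mRpL37* had 33.4, 36.5 and 38.9 CPM in late and 52.4, 54.3 and 55.4 CPM in mid.

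From early to late, 7 members fell in whole ovaries, where 13.5% of all genes fell, and 1 rose, where 8.39% rose. At an unadjusted p under 0.05, 37 members were lower and 2 higher (edgeR), where 2545 and 1985 of all 10060 genes were. In 17 members every late library lay below every early library, which held for 24.1% of all genes tested. The counts moved with single libraries. Without replicate 3 of early 45 members fell between late and early, where 18.2% of all genes fell, and 45 fell between late and mid, where 15.6% did. Between late and mid 0 members were called without replicate 2 or 3 of mid or without replicate 1 or 2 of late. Between late and early 1 was called without replicate 2 of late, and 2 without replicate 1 of late or of early. *mRpS30* and *mRpL37* fell with the smallest adjusted p, with 140, 141 and 118 CPM of *mRpS30* and 58.1, 59.9 and 55.8 CPM of *mRpL37* in early whole ovaries (log2 fold changes -0.83 and -0.67, edgeR adjusted p = 0.001 and 0.0013). *mRpS9*, with a bacterial counterpart, had 43.2, 36.0 and 39.8 CPM in late and 72.9, 67.9 and 53.9 CPM in early whole ovaries (log2 fold change -0.71, SE 0.14, edgeR adjusted p = 0.0041). *mRpS35* fell as well, with a log2 fold change of -0.80 (SE 0.16, edgeR adjusted p = 0.0048).

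The member that rose was *mRpL33*. It had 19.6, 14.3 and 13.8 CPM in late and 5.69, 8.20 and 6.33 CPM in early whole ovaries, with 7.71, 11.3 and 12.3 CPM at mid (log2 fold change of late over early 1.23, SE 0.25, edgeR adjusted p = 0.0047). *mRpS5* and *mRpL30* were the only other members with a log2 fold change above 0 from early to late in whole ovaries (0.38 for both), and neither passed the test. Without replicate 3 of early, *mRpL30* passed it (log2 fold change 0.61, edgeR adjusted p = 0.0068).

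Between mid and early whole ovaries 0 members were called, where 0.994% of all genes were (edgeR). At an unadjusted p under 0.05 there were 2 members and 2142 of all 10060 genes, and DESeq2 called 0 members and 6.33% of all genes. Fat body markers (9 genes, among them *Lsp2*, *apolpp* and *Fbp1*) summed to 18176 to 24686 CPM in early, 33183 to 79151 CPM in mid and 5632 to 10261 CPM in late whole ovaries, and their part in the fall of the members was not tested. Single markers moved in different directions. *apolpp* made up most of the early sum, with 14668 to 17115 CPM, and had 104 to 210 CPM in late whole ovaries. *Fbp1* made up most of the late sum, with 3782 to 7644 CPM, and had at most 0.42 CPM in early whole ovaries. The other genes with exons under 1000 bases had a median of -0.62 between late and mid whole ovaries, against -0.96 for the 51 members of that length.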

How the data were processed

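The authors sequenced poly(A)-selected RNA as single-end reads, aligned it with STAR 2.7.6a to the FlyBase genome, estimated expected counts per gene with RSEM 1.3.3 and summed them over lanes and runs, and these deposited expected counts were not normalized. Deposited long-format copies of the tables were left out. The expected counts were rounded to whole numbers. Members and gene lists were chosen with earlier results of these data known.

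The robust quasi-likelihood test of edgeR 4.0.16 was run in R 4.3.3 after filterByExpr and TMM scaling. A Benjamini-Hochberg adjusted p under 0.01 over all genes of the fit was a call. The 9 libraries of each tissue were fitted separately for stages, and the 18 sorted libraries together for tissues. CPM were computed with the TMM factors, over the 9 whole ovary or the 18 sorted libraries, so that levels are not compared between whole and sorted samples. SE is the log2 fold change divided by the square root of the F statistic. Symbols were found for 16205 genes. Exon lengths and positions came from the Ensembl annotation of the release 6 assembly, which is later than the annotation the authors counted with. Exons of 42 members overlap an antisense gene and of 3 a gene on the same strand. Germ cell replicates carry the numbers of the labels. Levels of single libraries in log2 deviations have 0.5 CPM added.

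The genes named were, in each comparison, up to 4 called members in each direction with the smallest adjusted p, the 5 largest and 5 smallest ratios of germ to somatic cells over all stages, the 3 highest and 3 lowest levels per length in each tissue, members that share a number, and members outside this rule where so stated or where they show an exception. Alternatives were DESeq2 1.42.0, RLE scaling, no filter, a replicate block, leaving out each library, and the early and late stages alone. The fits without the mid germ cell libraries and over all sorted libraries were added after seeing the data. The edgeR fit was tested on simulated data for 4 of the comparisons. It recovered 0% to 32.6% of changes of 2 times and 13.4% to 67.3% of changes of 4 times, least in germ cells. The simulated data held 92 to 108 changed genes of each size and gave 13 to 88 calls. Late over early somatic cells gave 2284 calls in the data. Recovery with that many changed genes was not measured. Promoter motifs were not analysed here. Depth ranged between 9680615 and 72875881 counts a library.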

Additional observations from a re-analysis of the deposited data

Results flagged for a closer look

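The late libraries of *mRpL37* all lay above the early ones in germ cells and all below them in somatic cells, but the change in germ cells did not pass the test (log2 fold change 0.35, SE 0.31, edgeR adjusted p = 0.9997). It had 68.2, 67.6 and 72.0 CPM in late and 43.0, 63.3 and 58.3 CPM in early germ cells, and 31.9, 31.2 and 29.6 CPM in late and 54.9, 74.6 and 54.7 CPM in early somatic cells. The difference between the changes of germ and somatic cells was 1.33 on the log2 scale (SE 0.36), and the test of this difference did not pass the threshold (edgeR adjusted p = 0.14 over all genes).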

How the results depend on the processing

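The germ cell libraries of mid, 3 libraries a group and the depth of the shallowest libraries limit these comparisons. DESeq2 called 23 members in whole ovaries between late and mid, 15 between late and early, 14 in somatic cells between late and mid and 41 between late and early. Of all genes it called 26.4%, 28.2%, 17% and 30.5% in these comparisons. In germ cells DESeq2 called 5, 2 and 1 members for mid over early, late over mid and late over early. For germ over somatic cells it called 8 over all stages, 1 at early, 5 at mid and 7 at late, and 1 for the difference in late over early. Of all genes it called 36.6%, 16.3%, 18.7%, 17.5% and 2.71% there. Every member that edgeR called was called by DESeq2 in the same comparison.

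Without the filter on low counts, 5 members were called between late and mid in whole ovaries and 7 in somatic cells. RLE scaling moved no count of calls by over 1.5 times. With the early and late stages alone, 15 members were called between germ and somatic cells, and the log2 fold changes turned to 0.22 for *mRpL43* and 0.60 for *mRpS21*. The fit over all sorted libraries, chosen after seeing the data, called 9 members between late and early somatic cells. The cause was not tested.

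Same-numbered replicates did not deviate together, with correlations between -0.19 and 0.30 in whole ovaries and between -0.15 and 0.079 in the sorted libraries, so that the numbers were not taken as pairs. With a replicate block the calls were 1 between late and mid and 2 between late and early in whole ovaries, 0 between late and mid in somatic cells, and for germ over somatic cells 1 over all stages, 2 at mid and 0 at late.

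Leaving out each library in turn gave 0 to 45 calls between late and mid and 1 to 47 between late and early in whole ovaries, both highest without replicate 3 of early. In somatic cells it gave 0 to 1 calls between mid and early, 0 to 5 between late and mid and 14 to 36 between late and early. In germ cells it gave 0 to 6 calls between mid and early, the highest without replicate 4 of mid, and 0 in the other comparisons. For germ over somatic cells it gave 2 to 8 calls over all stages, 0 at early, 1 to 9 at mid and 0 to 5 at late. The log2 fold change of *mRpL55* over all stages ranged between -1.84, without replicate 1 of mid germ cells, and 3.51.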
